A study of Arabidopsis thaliana with 4 samples.

Results

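A CG dyad is a CG dinucleotide seen as a pair of cytosines, one on each strand of the same 2 base pairs. A dyad was kept here when the cytosine on the plus strand and the cytosine on the minus strand, at the next position, were both listed with 5 to 50 reads in all 4 libraries, on chromosomes 1 to 5. This held for 367613 dyads, which are 13.2% of the 2783857 CG dinucleotides of the 5 chromosomes. Of the 852410 dyads listed on both strands in at least 1 library, 694524 were listed on both strands in all 4, and the depth limits then left the 367613 members. DNA methylation had been measured by EM-seq, an enzymatic counterpart of bisulfite sequencing. Enzymes convert unmethylated cytosines so that they are read as thymine, while methylated cytosines are still read as cytosine. The question was how methylation in Arabidopsis thaliana shoot apices differs after activation of nitric oxide signaling. The SNP group (2 libraries) was treated for 24 h with the nitric oxide donor sodium nitroprusside (SNP) at 1 mM in 0.025% of the wetting agent Silwet, and the mock group (2 libraries) with Silwet alone. The labels give Col-0 as the genotype of all 4 libraries, and the methods of the study name apices of ap1/cal, a double mutant whose apices are masses of arrested meristems, described as in Col-0 where RNA was sampled. They give no age for the plants used for EM-seq. A tissue label cannot be checked from methylation lists, which hold no expression values.

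In plants, CG methylation is copied at DNA replication. The methyltransferase MET1, guided by VIM proteins that recognise hemimethylated CG, methylates the new strand opposite each methylated CG of the old strand, so that both strands of a dyad end up alike. CG methylation in Arabidopsis covers transposons and repeats near the centromeres, and also the bodies of many protein-coding genes.

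The sequences below, from RefSeq, show the dyads on which the strand results turn, each with 20 bases on either side and the dyad itself in capitals (plus strand, 5′ to 3′, TAIR10). The first pair are the members called strand-biased. The next 3 share a flank that recurred among the strand-biased dyads with 10 or more reads on each strand, and the last had the largest mean excess of the minus strand.
chr3:14204684-14204725: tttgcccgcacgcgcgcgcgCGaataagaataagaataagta
chr3:14207909-14207950: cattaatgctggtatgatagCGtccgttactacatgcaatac
chr4:3966258-3966299: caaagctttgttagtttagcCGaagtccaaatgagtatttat
chr4:3982391-3982432: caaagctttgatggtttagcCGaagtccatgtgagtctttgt
chr4:4008861-4008902: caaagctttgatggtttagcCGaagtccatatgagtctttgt
chr5:11763043-11763084: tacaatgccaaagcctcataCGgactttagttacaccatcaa

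The stretch below lies in the coding sequence of TRN2 and holds all 10 of its member dyads, in capitals. It is shown because TRN2 had one of the largest differences between SNP and mock among the gene bodies described further on.
chr5:18952275-18952399: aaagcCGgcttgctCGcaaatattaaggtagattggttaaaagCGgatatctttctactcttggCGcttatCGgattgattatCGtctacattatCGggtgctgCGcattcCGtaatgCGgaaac

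The member dyads carried between 7116517 and 8217454 reads per library, with a median of 9 to 11 reads per strand. Counting error on the level of a library, as a 95% Wilson interval, was at most 0.0231 points to either side. Such intervals cover counting error only, because copies made by PCR and reads that span several dyads are not independent. No member had fewer than 2 methylated reads on a strand in any library, so dyads unmethylated on a strand are absent from the members and their high levels are fixed by the lists. Gene bodies of replicate libraries differed by more than the counting noise of independent reads (chi-square per gene 2.03 within SNP and 2.20 within mock). Because the reads are not independent, this value cannot show how distinct the replicates are. P-values measure the spread between these libraries, which the methods call biological replicates, with 2 per group.

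The plus and minus strands of the members held the same average level. In the SNP libraries the plus strand was methylated at 88.6% and 88.9% and the minus strand at 88.6% and 88.8%. In the mock libraries the plus strand was at 90.5% and 90.2% and the minus strand at 90.5% and 90.2%. The plus minus the minus strand was 0.0106 points in SNP 1, 0.0232 in SNP 2, -0.0415 in mock 1 and 0.0228 in mock 2. The mean over libraries was 0.00380 ± 0.0307 points (SD, n = 4, exact two-sided sign-flip permutation test, p = 0.875, with 0.13 the smallest p possible). This mean is far below the spread between libraries. By chromosome, it was between -0.0381 points on chromosome 1 and 0.0270 points on chromosome 4. With no upper depth limit it was 1.73 points over all chromosomes. The 2653 dyads that this let in had, taken alone, a difference of -0.222 ± 0.185 points (SD, n = 4). The 1.73 points thus appeared only with both sets pooled, and in neither set alone.

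Symmetry of single dyads was described by drawing 1 read from each strand of a dyad. Both reads were methylated in 80.1% and 80.4% of such pairs in the SNP libraries, against 83.0% and 82.5% in the mock libraries. Exactly 1 of the 2 reads was methylated in 17.7% and 17.5% in SNP, against 15.4% and 15.9% in mock. Neither was methylated in 2.23% and 2.16% in SNP, against 1.61% and 1.64% in mock. The SNP and mock libraries thus did not overlap in any of the 3 states.

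Discordant pairs were almost as frequent between 2 reads of the same strand. A pair from 1 strand was discordant in 17.2% and 17.0% in SNP, against 14.9% and 15.4% in mock. The part of discordance that goes beyond the same-strand value was 0.493 and 0.498 points in SNP, against 0.449 and 0.489 points in mock. Discordance between the strands was thus little above that within a strand. Pairs with only the plus strand methylated made up 8.84% and 8.74% in SNP, against 7.68% and 7.94% in mock, and pairs with only the minus strand methylated 8.84% and 8.73% in SNP, against 7.71% and 7.91% in mock. With each strand thinned to 5 reads, the pattern closest to hemimethylation, all 5 reads methylated on 1 strand and at most 1 on the other, had a share of 0.280% and 0.270% in SNP, against 0.195% and 0.198% in mock. All 10 reads were methylated in 44.0% and 44.5% in SNP, against 48.2% and 46.9% in mock. No member had fewer than 2 methylated reads on a strand in any library, so full hemimethylation could not be seen.

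**Figure D1:**
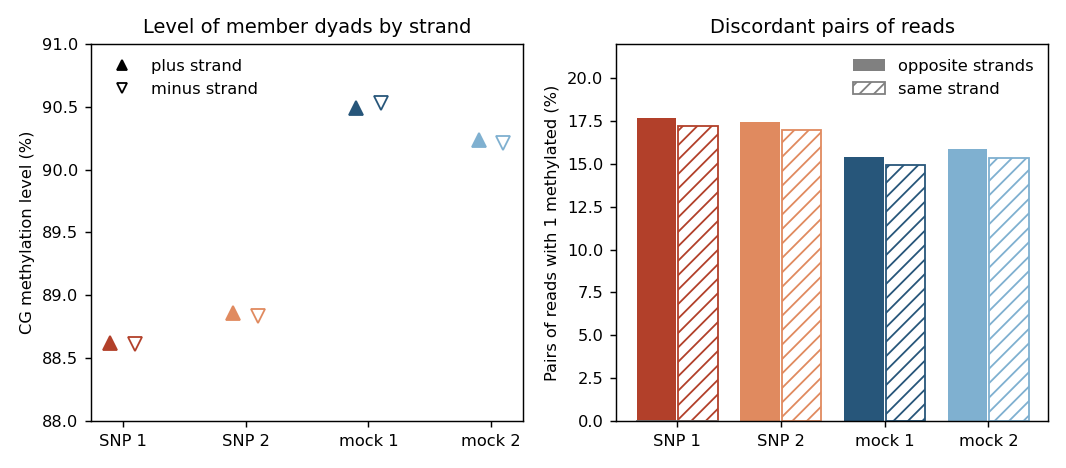
Left, CG methylation level (%) of the member dyads in each library, with filled triangles for the plus and open triangles for the minus strand on an axis that does not start at 0. Right, share of read pairs (%) in which 1 of 2 reads was methylated, for pairs from opposite strands (filled bars) and from the same strand (hatched bars). The strands of a library nearly coincide, and both kinds of pairs are more often discordant in the SNP libraries, at 17.0% to 17.7%, than in the mock libraries, at 14.9% to 15.9%.

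With both strands summed, the members were at 88.6% and 88.8% in the SNP libraries, against 90.5% and 90.2% in the mock libraries. The means were 88.7% ± 0.162 in SNP and 90.4% ± 0.203 in mock (SD, n = 2 each), a difference of -1.64 points. The 2 groups did not overlap, and the difference exceeds the pooled SD of 0.183 points. The exact two-sided permutation test of the group labels gave p = 0.33, the smallest value that 2 libraries against 2 allow. The difference was -1.62 points on the plus strand alone and -1.65 on the minus strand alone. Expressed as unmethylated reads, the share in gene-poor windows was 1.07 times as high in SNP as in mock, and elsewhere 1.21 times.

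CG sites for which only 1 strand met the depth limits numbered 309555, and their level was 88.3% and 88.4% in SNP, against 89.7% and 89.3% in mock. The members minus these sites came to 0.317 and 0.400 points in SNP, against 0.844 and 0.881 points in mock. The mean excess of 0.610 ± 0.294 points (SD, n = 4) was positive in 4 of 4 libraries (exact two-sided sign-flip permutation test, p = 0.13, the smallest possible). Members need listing, and so methylated reads, on both strands, while the other strand of these sites may be unlisted. The rule alone can thus raise the level of the members, and the excess is a description of the lists.

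The difference between SNP and mock was next described by level. Dyads were sorted by the level of the plus strand over all 4 libraries, and the minus strand was then measured. Since the SNP libraries entered the sorting and differences between libraries are shared by the strands, a dyad lower in SNP falls into a lower class, and the values are a description with no test. The 23759 dyads with 70% to 80% on the plus strand had 77.2% and 77.4% on the minus strand in SNP, against 82.5% and 82.4% in mock. The 15709 dyads at 50% to 70% had 63.7% and 63.5% in SNP, against 68.4% and 68.1% in mock. The 3934 dyads under 50% had 46.0% and 46.2% in SNP, against 48.8% and 47.7% in mock. In each of these classes both SNP values were below both mock values. The 35897 dyads with every plus-strand read methylated had 94.4% and 94.4% on the minus strand in SNP, against 94.4% and 94.1% in mock, a difference of 0.169 points, close to the pooled SD of 0.165 points. This class leaves out by construction each dyad with an unmethylated plus-strand read in SNP. Sorting by the minus strand and measuring the plus strand gave differences of -4.98 points for 70% to 80%, -4.20 for 50% to 70% and 0.179 for fully methylated dyads, where SNP and mock overlapped.

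Levels were shared by the 2 strands of a dyad, and so were the differences between libraries. Across dyads, the levels of the strands correlated with r = 0.466 and 0.444 in the SNP libraries, and 0.433 and 0.404 in the mock libraries. The same strand in different libraries correlated with r between 0.364 and 0.427. These are descriptions across 367613 dyads of 4 libraries, which are not independent replicates and have few reads each. The variation of dyad levels that both strands showed had an SD of 10.03 and 9.86 points in SNP, against 8.61 and 8.50 points in mock. The SD of the library-to-library difference that both strands showed was between 4.96 and 5.96 points for the 4 pairs of a SNP and a mock library. It was 3.76 points between the SNP libraries and 4.48 points between the mock libraries, below all 4 mixed pairs.

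A strand difference that persisted from library to library was small. The difference between the strands of a dyad correlated with r of only 0.0108 to 0.0157 between libraries. From the covariance over the 6 pairs of libraries, which is free of counting error, the lasting strand difference had an SD of 1.72 points, with 1.57 to 1.93 for single pairs. In comparison, the SD of the strand difference within a library, from the excess of discordant pairs between strands, was 7.02 and 7.05 points in SNP and 6.70 and 6.996 points in mock. The same strand was ahead in all 4 libraries in 15935 dyads (4.33%), of which 7992 had the plus and 7943 the minus strand ahead. Averaged over the libraries, the strands lay less than 10 points apart in 83.2% of the members, and more than 50 points apart in 12 dyads.

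Part of the lasting strand difference went with the base next to the cytosine. In a dyad the base before the cytosine can differ between the strands, and 72168 members had adenine before the cytosine of 1 strand and thymine before that of the other. The strand with adenine had 88.5% and 88.7% in SNP and the strand with thymine 87.4% and 87.7%. In mock the strand with adenine had 90.4% and 90.1% and that with thymine 89.6% and 89.2%. The adenine strand was therefore ahead by 1.09 and 1.00 points in SNP, against 0.802 and 0.874 points in mock. The mean was 0.943 ± 0.130 points (SD, n = 4), positive in 4 of 4 libraries (exact two-sided sign-flip permutation test, p = 0.13, the smallest possible). With no upper depth limit the mean was 0.363 points.

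The excess was 0.939 points where adenine stood on the plus strand (36079 dyads) and 0.947 points where it stood on the minus strand (36089 dyads), so it followed the base and not the strand. Reads were slightly fewer on the adenine strand, at 10.4 per dyad and library, than on the thymine strand, at 10.8, and the excess was 1.04 points among dyads and libraries with equal depth on both strands. Guanine was ahead of thymine by 0.751 points (43177 dyads), adenine ahead of cytosine by 0.660 (38359), guanine ahead of cytosine by 0.433 (30550) and cytosine ahead of thymine by 0.366 (54660), each in 4 of 4 libraries. Adenine and guanine were not told apart, with 0.0777 ± 0.172 points and 2 of 4 libraries positive (27837 dyads). Such contrasts numbered 6, and none can pass 0.05 with 4 libraries. In dyads with the same base on both strands, the plus minus the minus strand had means between -0.0533 and 0.0750 points. These dyads hold no contrast of bases, so they cannot test whether the difference depends on the base. The comparison by flanking base was chosen after the values had been seen.

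**Figure D2:**
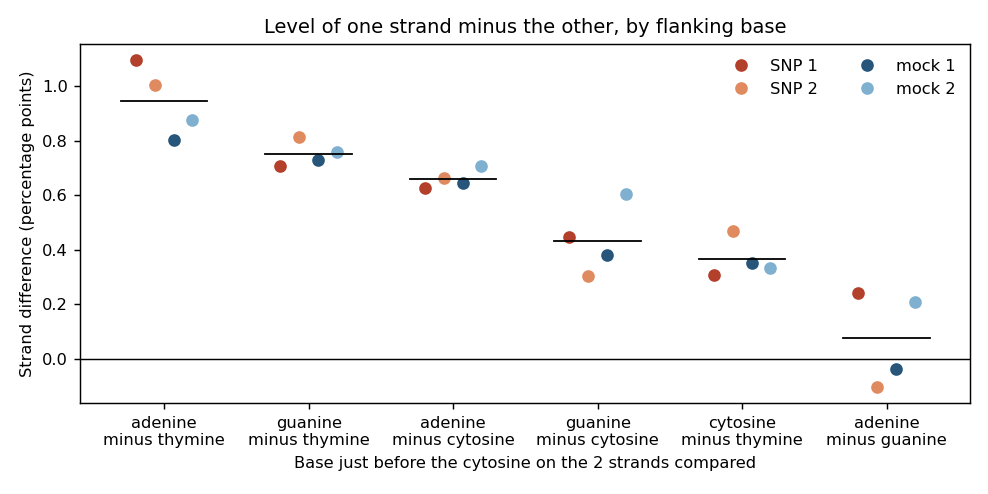
Level of 1 strand minus the level of the other (percentage points) for member dyads whose cytosines follow different bases on the 2 strands, with 1 point per library and a line for the mean. The adenine minus thymine contrast lies between 0.802 and 1.09 points in the 4 libraries, and the adenine minus guanine contrast lies on both sides of 0.

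Only 2 member dyads were called strand-biased by edgeR's quasi-likelihood test (Benjamini-Hochberg adjusted p under 0.05 over all members and the same sign in all 4 libraries), which is 0.000544% of the 367613 tested. An unadjusted p under 0.05 was reached by 2538 of the 367613 members, a share below 0.05. A well calibrated test would give about 0.05 with no strand difference anywhere. The test was thus conservative, and strand-biased dyads may have been missed. Without mock 1, SNP 1 or SNP 2 no dyad was called, and without mock 2 there was 1. Neither dyad lies in an annotated gene, and both are in gene-poor sequence of chromosome 3. At the dyad starting at position 14204704 of chromosome 3, the plus strand had 26 of 26 reads methylated in SNP 1, 27 of 27 in SNP 2, 17 of 17 in mock 1 and 26 of 28 in mock 2. Its minus strand had 15 of 26, 18 of 36, 25 of 38 and 17 of 29 reads methylated in the same libraries. Over all libraries the plus strand was thus at 97.96% (exact 95% interval 92.8% to 99.8%) and the minus strand at 58.1% (49.1% to 66.8%), with an edgeR adjusted p of 0.00520. At position 14207929 the plus strand had 130 of 138 reads methylated (94.2%, interval 88.9% to 97.5%) and the minus strand 79 of 137 (57.7%, interval 48.9% to 66.1%), with an edgeR adjusted p of 0.0116. The shared direction in SNP and mock libraries is part of the rule for a call, and with both strands summed SNP and mock overlapped at both dyads.

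More dyads were called with other depths or tests. Among the 6689 dyads with 10 to 50 reads on each strand, edgeR called 14, with 12 ahead on the plus and 2 on the minus strand, and the Cochran-Mantel-Haenszel test called 38 of all members. All of the 14 were in gene-poor windows, which hold 35.4% of the 6689, and so were 37 of the 38, against 38.5% of all members. The less methylated strand was the deeper one in 9 of the 14 and in 28 of the 38, against 49.1% of all members, and whether reads from other copies entered these counts was not tested. Of the 14 windows of 42 bases, 9 occur more than once in the 5 chromosomes. With no upper depth limit 364 dyads were called, of which 345 had over 50 reads on a strand in some library.

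Of the 14 windows, 7 began with CAAAGCTTTG, all on chromosome 4, and they contained 4 distinct sequences, 1 of which (starting at 4008861 above) occurs 32 times in the 5 chromosomes. This motif reads the same on both strands. Of all members, 180 (0.0490%) hold it within 20 bases of the dyad, and of the members with 10 to 50 reads 22 (0.329%) do. It was chosen from the called dyads after their values had been seen. With the motif at this distance before the plus-strand cytosine (82 members on all 5 chromosomes), the plus strand was ahead by 12.2 and 13.4 points in SNP, against 12.5 and 13.5 points in mock. Without the called dyads the excess was 5.95 and 8.204 points in SNP, against 7.13 and 8.62 points in mock, over 75 dyads. In the 51 members with the motif at the same distance before the minus-strand cytosine, which had not served to choose it, the minus strand was ahead by 5.89 and 6.68 points in SNP, against 3.12 and 8.21 points in mock. The excess thus changed strand with the orientation of the flank.

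The dyad with the largest mean excess of the minus strand, at position 11763063 of chromosome 5, was chosen after its values were seen. The plus strand had 5 of 18 and 8 of 24 reads methylated in SNP, against 5 of 29 and 4 of 13 in mock. The minus strand had 13 of 14 and 9 of 9 reads methylated in SNP, against 12 of 13 and 13 of 16 in mock. Its edgeR adjusted p was 0.0803, so it was not called.

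Member dyads were concentrated near the centromeres. Chromosomes were divided into windows of 500 kb, and a window with less than 30% of its bases in protein-coding genes was called gene-poor. Of all CG dinucleotides in gene-poor windows 28.9% were members (141656 dyads), and elsewhere 9.85% (225957 dyads). Chromosomes 1 to 5 held 80782, 68818, 76015, 62133 and 79865 members. Since membership needs methylated reads on both strands, this distribution is a description of the lists.

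Levels were higher in gene-poor windows, and there SNP and mock lay closer together. In gene-poor windows the members were at 92.5% and 92.6% in SNP, against 93.1% and 92.9% in mock, a difference of -0.466 points. In the other windows they were at 86.3% and 86.6% in SNP, against 88.9% and 88.6% in mock, a difference of -2.34 points. The level in gene-poor windows exceeded that elsewhere by 6.17 and 5.97 points in SNP, against 4.16 and 4.23 points in mock. Over the 4 libraries this excess was 5.13 ± 1.09 points (SD, n = 4, exact two-sided sign-flip permutation test, p = 0.13, the smallest possible). It was larger in SNP by 1.88 points, with no overlap between the groups and a pooled SD of 0.110 points (exact two-sided permutation test, p = 0.33, the smallest possible). This last difference was 0.640 points with 10 to 50 reads and 0.921 points with no upper depth limit. The excess depended on the depth limits. Without the upper limit the 2653 deeper dyads entered and the level in gene-poor windows minus that elsewhere was -9.002 points, and with 10 to 50 reads it was -0.193 points over 6689 dyads. Of these deeper dyads 86.5% were in gene-poor windows, 1143 of them on chromosome 2, and they were at 41.2% and 43.1% in SNP, against 46.6% and 39.0% in mock.

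The chromosomes had similar values. In gene-poor windows the difference between SNP and mock was between -0.689 points on chromosome 2 and -0.349 points on chromosome 5. In the other windows it was between -2.52 points on chromosome 1 and -2.18 points on chromosome 5. Over whole chromosomes it was between -1.98 points on chromosome 1 and -1.45 points on chromosome 3, and on each of the 5 SNP lay below mock without overlap.

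Of the 240 windows, 230 (95.8%) had lower values in SNP 1 and SNP 2 than in either mock library, and 2 (0.833%) had higher values in both. The lower ones were 32 of the 41 gene-poor windows, with a median difference of -0.443 points, and 198 of the 199 other windows, with a median of -2.57 points. The window with the strongest difference was on chromosome 1 from 7500001 to 8000000, with 84.7% and 84.6% in SNP against 89.4% and 89.2% in mock over 862 dyads. Next came chromosome 4 from 12000001 to 12500000, with 82.9% and 83.4% in SNP against 87.9% and 87.4% in mock. Both are rich in genes, with 59.9% and 67.1% of their bases in protein-coding genes.

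At the other end, the window from 13500001 to 14000000 of chromosome 3, where genes take up 0.889% of the bases, had 94.1% and 94.3% in SNP against 93.9% and 94.0% in mock. Among gene-poor windows, 1 lay apart from the rest, from 3000001 to 3500000 of chromosome 2, with 84.3% and 84.4% in SNP against 87.3% and 86.5% in mock. Chromosome 2 of Arabidopsis carries a large insertion of mitochondrial DNA near its centromere. The next strongest gene-poor window had a difference of -1.01 points. The strands differed by a median of 0.174 points per window without regard to sign, and had the same sign in all 4 libraries in 32 of the 240 windows.

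**Figure D3:**
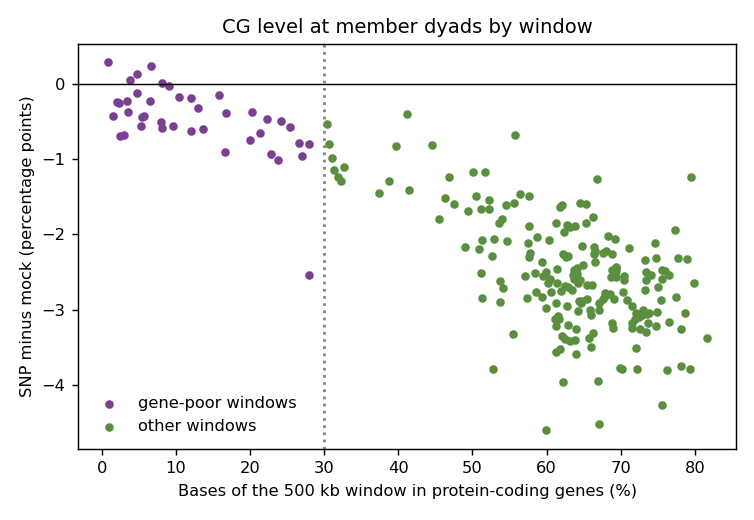
Difference in CG methylation level at the member dyads, SNP minus mock in percentage points, against the share of bases in protein-coding genes, with 1 point per 500 kb window. Gene-poor windows are left of the dotted line at 30%. They lie near 0, with a median of -0.443 points, and the other windows have a median of -2.57 points.

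By annotation, the difference was strongest inside protein-coding genes. Coding sequence held 132687 members, at 85.8% and 86.1% in SNP, against 88.8% and 88.5% in mock. Introns held 31043, at 86.7% and 87.1% in SNP, against 90% and 89.5% in mock. The 5215 members in untranslated exons had 81.4% and 81.6% in SNP, against 84.5% and 84.3% in mock. Differences in these 3 classes were -2.72, -2.88 and -2.94 points. In pseudogenes, which in this annotation include many transposon remnants, the 72747 members had 93.4% and 93.5% in SNP, against 93.7% and 93.5% in mock, and the groups overlapped. Members within 1 kb upstream of a gene differed by -1.62 points, those within 1 kb downstream by -1.32 points and those in the remaining sequence by -0.631 points.

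The contrast between annotation classes was also present within a kind of window. In gene-poor windows the 8685 members in coding sequence had 89.0% and 89.0% in SNP, against 90.9% and 90.5% in mock, while the 57366 members in pseudogenes had 93.9% and 93.9% in SNP, against 94.1% and 93.9% in mock. In the other windows pseudogene members differed by -0.273 points and coding members by -2.80 points.

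Within gene bodies the difference was of like size from start to end. Divided into 5 equal parts along the direction of transcription, the bodies had differences of -2.67, -2.86, -2.73, -2.61 and -3.00 points. Members were rarest in the first of these parts, with 5.12% of them, and most frequent in the fourth, with 32.3%. Relative to transcription, the strands were nearly alike. The coding strand minus the template strand was 0.00355 and 0.0949 points in SNP, against 0.0167 and 0.0785 points in mock, over 167520 dyads. The mean of 0.0484 ± 0.0450 points (SD, n = 4) was positive in 4 of 4 libraries (exact two-sided sign-flip permutation test, p = 0.13, the smallest possible). In coding sequence alone it was 0.0995 points, and in introns -0.205 points, where the template strand was ahead in 4 of 4 libraries. With no upper depth limit the value over gene bodies was -0.280 points.

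For single dyads, SNP and mock could not be separated. No member was called by edgeR at an adjusted p under 0.05, and the share called among all 677168 CG units tested was 0%. An unadjusted p under 0.05 was reached by 13679 of the 367613 members, again a share below 0.05, so this test was conservative too. Fisher's exact test on pooled reads, which ignores the spread between replicates, called 199, of which 187 were lower in SNP. SNP lay below mock without overlap in 71720 members (19.5%), against 15.9% of all CG units, and above in 46776 (12.7%), against 10.9% of all CG units. Each strand on its own showed SNP below mock in 11270 members (3.07%) and above in 3801 (1.03%), whereas the strands went opposite ways in 7012 (1.91%). On the plus strand alone SNP lay below mock in 13.7% and above in 9.03%. Whether the strands agreed more often than unrelated strands would was not tested.

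The dyad with the smallest p, at 5117787 of chromosome 4 in the pseudogene AT4G08134, had 7 of 24 and 20 of 28 reads methylated in SNP, against 19 of 19 and 23 of 23 in mock. The next were at 3620548 of chromosome 5, in an intron of AT5G11340, with 9 of 31 and 8 of 16 in SNP, against 31 of 36 and 31 of 31 in mock, and at 29698951 of chromosome 1, in the coding sequence of AT1G78960, with 20 of 26 and 9 of 21 in SNP, against 29 of 29 and 28 of 28 in mock. In the other direction, the dyad at 27025227 of chromosome 1 in AT1G71850 had 22 of 22 and 17 of 17 reads methylated in SNP, against 9 of 20 and 16 of 25 in mock. The dyad at 3329866 of chromosome 5 in AT5G10540 had 37 of 37 and 13 of 13 in SNP, against 19 of 26 and 11 of 20 in mock, and that at 644449 of chromosome 5 in AT5G02830 had 32 of 34 and 23 of 24 in SNP, against 9 of 30 and 17 of 21 in mock. All 6 had an edgeR adjusted p of 1.

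Summed over the member dyads of a gene, differences became large enough to call. Of 9629 protein-coding gene bodies with at least 5 members, 252 (2.62%) were lower in SNP and 0 (0%) higher by edgeR at an adjusted p under 0.05, and 2045 had an unadjusted p under 0.05. The median gene body was at 86.5% in SNP, against 89.5% in mock, and the median difference was -2.54 points. SNP lay below mock without overlap in 4369 gene bodies (45.4%) and above in 570 (5.92%). The 252 genes differed by between -26.8 and -3.53 points, with a median of -10.7. All 252 were lower on each strand on its own mean, as were 5492 of all 9629 gene bodies. The calls were made on the sum of both strands, so this agreement is not independent of them.

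The number of calls changed with the library left out. So did the fitted spread (dispersion), which was 0.0185 without either SNP library and 0.0138 without either mock library. The weight that a fit gives to the spread shared by genes (prior degrees of freedom) changed too. It was 7.79 without SNP 1, 7.78 without SNP 2 and infinite without either mock library, against 25.0 with all libraries. Whether the SNP values, the fitted spread or this weight led to the counts below was not tested. Without SNP 1 and without SNP 2 no gene body was called, without mock 2 there were 488 (481 lower and 7 higher in SNP) and without mock 1 there were 213 (210 lower and 3 higher). Of the 252 genes, 203 were among the 488 and 126 among the 213. When each gene body was tested against the shift that all gene bodies shared, an odds ratio of 0.778, no gene was called (1025 at an unadjusted p under 0.05). No gene was thus separated from the shift shared by all. Of 690 gene bodies in gene-poor windows 2.75% were called, and of 8939 elsewhere 2.61%.

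Among the 10 gene bodies with the smallest p, SNC1, TRN2, AT4G18070 and AT4G10660 had the largest differences. SNC1 (AT4G16890, chromosome 4 from 9500271 to 9505972, minus strand, 22 members) encodes a TIR-NBS-LRR disease resistance protein. It was methylated at 72.5% and 70.2% in SNP, against 89.2% and 91.6% in mock. It fell on both strands alike, with -18.7 points on the plus and -19.3 points on the minus strand (edgeR adjusted p = 0.00379). SNC1 belongs to a cluster of similar resistance genes, and PLDGAMMA3 below also lies beside close relatives, so the values of both are uncertain where reads could map to a copy. Whether reads of these or the other named genes could map to a copy was not tested.

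AT4G18070, annotated only as a suppressor, had 71.03% and 63.04% in SNP, against 94.7% and 93.0% in mock, over 6 members. AT4G10660, a CDC68-like protein, had 76.9% and 69.9% in SNP, against 92.3% and 91.6% in mock, over 12 members. The groups were far apart in both, although the SNP libraries differed among themselves by several points. AT2G46060, a transmembrane protein-like protein, had 78.4% and 79.6% in SNP, against 90.98% and 93.6% in mock. GH9B15, a glycosyl hydrolase of a family that acts on cell wall glucans, had 78.6% and 79.6% in SNP, against 91.3% and 89.9% in mock, over 38 members. PLDGAMMA3, a phospholipase D, had 87.7% and 83.4% in SNP, against 95.9% and 94.6% in mock.

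The 3 remaining genes had smaller differences, of -9.34 to -6.77 points. AT4G17610, a tRNA/rRNA methyltransferase family protein with 74 members, had 86.7% and 87.0% in SNP, against 94.2% and 93.1% in mock. AT1G12930, an ARM repeat protein, had 84.6% and 86.4% in SNP, against 94.8% and 94.9% in mock. AT4G04555, a Myb family transcription factor, had 90.1% and 86.9% in SNP, against 97.5% and 97.5% in mock. The 10 adjusted p-values lay between 0.00379 and 0.00581 by edgeR, and between 0.270 and 0.359 without either SNP library.

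TRN2 (AT5G46700, chromosome 5 from 18950843 to 18953127, plus strand) encodes the tetraspanin TORNADO2, which is needed for leaf patterning and for organisation of the shoot meristem. All of its 10 members lie within the stretch of 125 bases printed above. They were methylated at 70.8% and 69.0% in SNP, against 92.3% and 93.6% in mock (edgeR adjusted p = 0.00379). SNP lay below mock without overlap at 9 of the 10 dyads, the exception being the last, against 19.5% of all members. Both strands were lower in SNP at all 10. TRN2 was chosen for its small p over the sum of these same dyads and strands, so both counts are a description and no added support. The ninth dyad had 56.7% and 40.0% in SNP, against 80.8% and 87.5% in mock, and the sixth had 81.8% in both SNP libraries, against 96.6% and 100% in mock. The plus strand was at 77.6% and 80.2% in SNP, against 93.4% and 98.4% in mock, and the minus strand at 65.9% and 56.0% in SNP, against 90.6% and 91.3% in mock. The strands differed more within SNP than within mock here, over 188 to 284 reads per library, and this was not tested. Reads that span several of these dyads count at each of them.

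**Figure D4:**
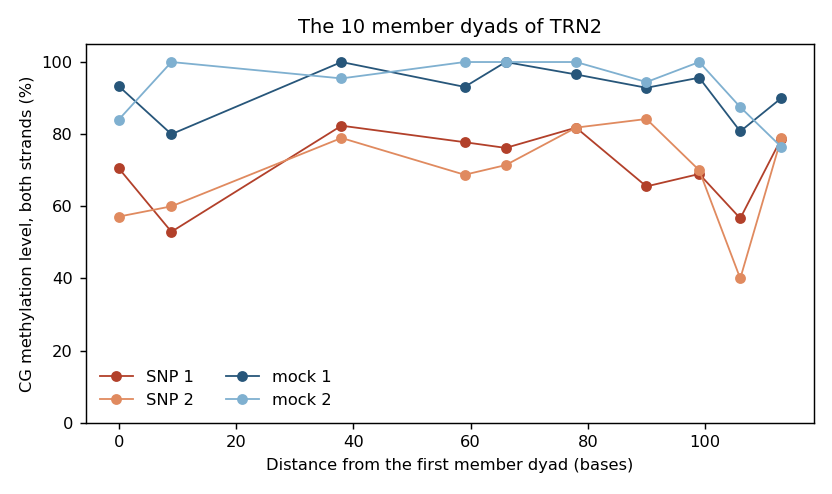
CG methylation level (%) with both strands summed at the 10 member dyads of TRN2, against the distance in bases from the first of them, with 1 line per library. The SNP libraries lie below the mock libraries at the first 9 dyads, and the groups meet at the last.

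In the direction of more methylation in SNP no gene body was called. The 5 with the smallest p were AT2G06541, AT5G38190, AT1G36230, EMB1968 and CRCK2, with edgeR adjusted p between 0.0659 and 0.0833. With the replicate number as a block, the edgeR adjusted p of AT2G06541 was 0.0311, that of AT1G36230 0.0353 and that of AT5G38190 0.0454. Replicate numbers do not pair the samples, as described at the end, so these block values are no added support. Without mock 2 that of AT2G06541 was 0.0444, and without mock 1 that of AT1G36230 was 0.0441. CRCK2, a calmodulin-binding receptor-like kinase, had 94.1% and 96.7% in SNP, against 87.4% and 87.0% in mock. EMB1968, an AAA-type ATPase, had 96.7% and 95.3% in SNP, against 89.9% and 89.3% in mock. AT5G38190, annotated as myosin heavy chain-like, had 97.4% and 96.5% in SNP, against 92.9% and 93.8% in mock. AT2G06541, with a TTF-type zinc finger, had 94.5% and 97.1% in SNP, against 90.2% and 91.6% in mock, and the uncharacterized AT1G36230 had 95.3% and 97.1% in SNP, against 94.2% and 92.8% in mock.

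**Figure D5:**
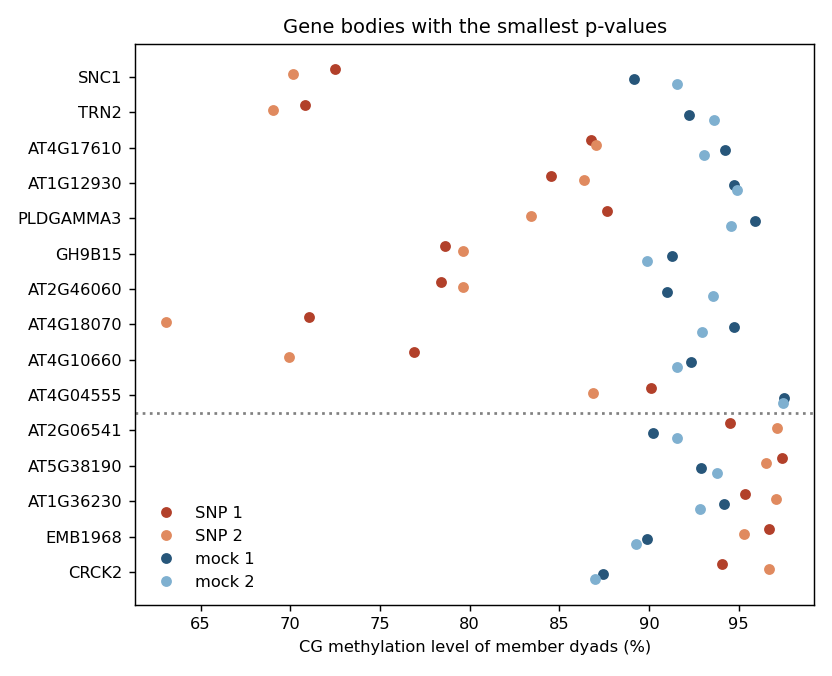
CG methylation level (%) of the member dyads in the gene bodies with the smallest p, with 1 point per library on an axis that does not start at 0. Above the dotted line are the 10 genes called lower in SNP, and below it the 5 genes of the other direction, none of which was called.

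Genes that set, keep or remove DNA methylation were followed as a list of 18, of which 14 had enough members to be tested. None was called, against 2.62% of all 9629 gene bodies, and 6 had an unadjusted p under 0.05, against 2045 of the 9629. The median difference was -3.15 points, against -2.54 points over all genes tested. MET1, which maintains CG methylation, had 70.9% and 76.0% in SNP, against 86.6% and 86.4% in mock, over 8 members (edgeR adjusted p = 0.0964). CMT3, the main CHG methyltransferase, had 78.5% and 72.3% in SNP, against 86.3% and 88.7% in mock (edgeR adjusted p = 0.139). DDM1, a chromatin remodeler needed for methylation of heterochromatin, had 83.2% and 81.4% in SNP, against 87.0% and 92.3% in mock (edgeR adjusted p = 0.203). SNP lay below mock without overlap in these 3 genes, as it did in 45.4% of all gene bodies.

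NRPD1, the largest subunit of RNA polymerase IV, had 87.2% and 88.9% in SNP, against 90.7% and 93.1% in mock, over 93 members (edgeR adjusted p = 0.0580). With the replicate number as a block, which does not pair the samples, its edgeR adjusted p was 0.0185. ROS1, a DNA glycosylase that removes methylation, had 83.6% and 86.5% in SNP, against 91.7% and 89.4% in mock (edgeR adjusted p = 0.0992). IBM1, a histone demethylase that keeps gene bodies free of H3K9 methylation, had 88.01% and 89.6% in SNP, against 92.8% and 92.5% in mock (edgeR adjusted p = 0.136). DRM2, the methyltransferase of RNA-directed DNA methylation, had 88.03% and 88.5% in SNP, against 91.3% and 97.5% in mock (edgeR adjusted p = 0.304).

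The remaining genes of the list had groups that overlapped or lay less than 3 points apart, with 1 exception. AGO4, which binds small RNAs in RNA-directed DNA methylation, had 87.1% and 90.4% in SNP, against 89.6% and 91.1% in mock. KYP, an H3K9 methyltransferase, differed by -2.50 points, CMT2, a methyltransferase of non-CG sites, by -2.28, NRPE1, the largest subunit of RNA polymerase V, by -1.63, and DME, a DNA glycosylase, by -0.970. VIM1 and VIM3, the partners of MET1 at hemimethylated CG, were the only 2 of the 14 with positive differences, of 1.80 and 7.20 points. VIM3 is the exception named above, with 84.8% and 81.4% in SNP, against 73.6% and 78.2% in mock (edgeR adjusted p = 0.470, 6 members). VIM2, DRM1 and DML3 had no member, and DML2 had 1.

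The study names 9 stem cell genes for reduced methylation, a choice made on these samples and so not independent. It measured total cytosine methylation (5-mC) at these loci. Here only member CG dyads inside the gene bodies count, so promoters and non-CG sites are not covered and the 2 measures differ. Of the 9 genes, 5 could be tested. None was called, against 2.62% of all gene bodies, and 2 had an unadjusted p under 0.05, against 2045 of all 9629. The median difference was -1.84 points, against -2.54 over all genes tested. ERL2, a receptor kinase of the ERECTA family, had 79.2% and 88.1% in SNP, against 91.1% and 89.4% in mock, over 23 members (edgeR adjusted p = 0.139). Its relative ERL1 had 83.4% and 84.9% in SNP, against 89.8% and 89.3% in mock, over 16 members (edgeR adjusted p = 0.229). MEE22 had 91.3% and 95.1% in SNP, against 92.5% and 90.9% in mock. The receptor gene CLV2 had 90% and 88.2% in SNP, against 92.2% and 86.5% in mock, and AT3G15150 (HPY2), a SUMO ligase gene, had 87.1% and 78.5% in SNP, against 82.4% and 86.8% in mock. The groups overlapped in these last 3 genes. BARD1 held 3 members and CRN 4, too few to be tested, and ARR7 and CLE13 held none.

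In a list of 12 genes of the shoot meristem and of nitric oxide metabolism, which shares ERL1 with the preceding list, 9 had no member dyad, namely the stem cell regulators WUS, CLV3, CLV1 and STM, the boundary and organ genes UFO and CUC2, the nitrate reductase genes NIA1 and NIA2, and GLB1 (AT2G16060), a haemoglobin gene. The other 3, ERL1 included, were tested, with a median difference of -4.92 points and none called. The receptor kinase gene ERECTA (ER) had 87.2% and 88.7% in SNP, against 92.9% and 88.8% in mock, over 27 members (edgeR adjusted p = 0.344). NOA1, associated with nitric oxide production, had 73.8% and 77.3% in SNP, against 75.9% and 85.0% in mock, and the groups overlapped (edgeR adjusted p = 0.495). The third was ERL1, given above.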

How the data were processed

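DNA of 4 libraries was processed by the authors with EM-seq (paired ends). Per the submitters' processing notes, FastQC and Bismark were used with the TAIR10 build, and versions are not given in the sources used here. The authors deposited a list of called cytosines per library with the methylation level as a fraction and the depth as a count of reads. Methylated reads were recovered as level times depth, which was whole at all CG sites, and all listed CG positions matched a CG of the RefSeq TAIR10.1 sequence, whose gene models were used. A cytosine absent from a list may be uncovered or uncalled, and the test used for calling is not given in the sources used here. Spike-in controls were not analysed here.

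Levels are methylated reads over all reads. edgeR 4.0.16 (R 4.3.3) fitted methylated and unmethylated counts with 1 common dispersion estimated on up to 20000 rows, per dyad (strand within library, 367613 dyads), per CG unit (SNP against mock, 677168 units) and per gene body (at least 5 members), with Benjamini-Hochberg adjustment and a threshold of 0.05. Single values over libraries were tested with exact permutation tests. The fits were also run on simulated counts without spread between replicates. For gene bodies the dispersion was 0.000216 in these counts, against 0.0163 in the data. The simulation therefore cannot show how the fits behave at the spread of the data. Alternatives were other depths (10 to 50, or no upper limit), other tests, at least 10 members per gene, gene-poor windows under 20%, leaving out each library, and a replicate block. Genes named are the 10 with the smallest p among those called in a direction, the 5 with the smallest p where fewer than 5 were called, and 3 fixed lists. Dyads named are the strand-biased ones and the 3 with the smallest p in each direction, plus those stated as chosen later. The members and lists were chosen with earlier results of these data known. Python 3.11.15, numpy 2.4.6, scipy 1.17.1, pandas 2.3.3 and matplotlib 3.10.9 were used.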

Additional observations from a re-analysis of the deposited data

How the results depend on the processing

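Having 2 libraries per group and about 10 reads per strand limit single dyads, and members hold no site with under 2 methylated reads on a strand. Where a setting changed a value the cause was not tested unless named. With 10 to 50 reads, which fewer dyads meet, there were 6689 members, a mean strand difference of 0.250 points, a lasting strand SD of 3.86 points, 14 strand-biased dyads, a difference between SNP and mock of -2.35 points, a gene-poor excess of -0.193 points that was 0.640 points larger in SNP, a coding minus template difference of 0.235 points, an adenine minus thymine difference of 1.36 points and 0 called gene bodies among 46 tested. With no upper depth limit, which let in 2653 dyads holding 23.5% of the reads, these values were 1.73, 1.92, 364 dyads, -2.03, -9.002, 0.921, -0.280 and 0.363, and 7 dyads were called between SNP and mock. Taken alone, these 2653 dyads had a mean strand difference of -0.222 points. Strand-biased dyads numbered 38 with the Cochran-Mantel-Haenszel test and 54 with Fisher's exact test. Fisher's exact test called 199 dyads and 2847 gene bodies between SNP and mock. In coding sequence alone the coding minus template difference was 0.0995 points. Against the shift shared by all gene bodies, an alternative added after seeing the data, 0 gene bodies were called. The adenine minus thymine difference and the comparison of the gene-poor excess between SNP and mock were also added after seeing the data.

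Leaving out 1 library gave 0 to 1 strand-biased dyads and 0 to 488 called gene bodies, with 0 without either SNP library. Over these 4 settings the difference between SNP and mock was -1.78 to -1.49 points, the gene-poor excess 4.78 to 5.46 points and the adenine minus thymine difference 0.893 to 0.990 points.

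Replicate numbers are shared by the groups, but with a correlation of -0.00665 across gene bodies between deviations of same-numbered libraries they do not pair the samples. With the replicate block 526 gene bodies were called (522 lower and 4 higher in SNP), including all 252, no dyad was called, and the difference over all members was -1.64 points.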
